A study of Mus musculus with 12 samples.

Results

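Vasoactive peptide systems of the heart were followed in mouse hearts after aortic constriction, with or without exposure to diesel exhaust before birth. The members are the 9 genes of the angiotensin, endothelin and apelin axes named for this account, out of 27179 gene numbers counted. They are the precursor Agt, the enzyme Ace and the receptor Agtr1a of the angiotensin axis, the peptide gene Edn1, the enzyme Ece1 and the receptors Ednra and Ednrb of the endothelin axis, and the peptide gene Apln and its receptor Aplnr. All 9 passed the filter on low counts and stood among the 13626 genes tested.

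The data are bulk RNA sequencing of heart tissue from 12 mice, in 4 groups of 3 libraries. The DE TAC hearts came from mice whose dams breathed diesel exhaust (DE) from embryonic day E0.5 to E17.5 and which had transverse aortic constriction (TAC), a narrowing of the aortic arch against a 27 gauge needle, at 12 weeks of age. The DE sham hearts had the same exposure and a sham operation. The FA TAC and FA sham hearts came from dams kept in filtered air (FA), with TAC and with a sham operation. All 4 groups were raised in filtered air after birth and their hearts were taken at 15 weeks. The sources used here do not give strain, sex, litter or the part of the heart sampled. The Y-linked genes Ddx3y and Uty held 160 to 781 and 77 to 267 counts per library. Xist held 0 to 18, so the counts mark all 12 hearts as male. Since the exposure acted on dams, hearts of 1 group may share a litter. The p-values measure the spread between these samples, treated as independent.

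Total counts ran from 5534685 to 13265816 per library, and mitochondrially encoded RNA took 18.3% to 32.4% of them. Levels are given as CPM, counts scaled to a common library size with TMM factors, and 3 counts in a library came to between 0.218 and 0.501 CPM, which covers counting error only. Ventricular cardiomyocyte markers were abundant in every library, and lung epithelial markers summed to at most 2.94 CPM, with Sftpc and Sftpa1 at 0. The 5 atrial markers summed to 19.7 to 70.4 CPM in DE TAC and 20.3 to 28.6 CPM in DE sham hearts. They summed to 16.9 to 39.3 CPM in FA TAC and 14.3 to 36.3 CPM in FA sham hearts. Atrial content may thus differ between libraries of a group, which was not tested. A gene is called changed when its adjusted p from the edgeR quasi-likelihood test, corrected by Benjamini and Hochberg over the 13626 genes, is under 0.05. Log2 fold changes are given ± SE from the fit of all 12 libraries, and levels ± SD. Whether libraries of 2 groups overlap is given as a description. The share of all genes tested whose groups do not overlap was not counted.

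The 3 systems share a layout of precursor, converting enzyme and G protein-coupled receptor. Renin cuts angiotensinogen, and angiotensin-converting enzyme trims the product to angiotensin II, which acts through the type 1 receptor to constrict vessels and promote growth of cardiac muscle and scar. Endothelin-1 is released as a large precursor that endothelin-converting enzyme cleaves. It constricts vessels through receptor A on muscle cells, while receptor B on endothelium promotes relaxation and clears the peptide. Apelin, made largely by endothelium, dilates vessels and strengthens contraction through its receptor, and is known as a counterweight to angiotensin II.

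The 250 bases before the annotated start are shown for 1 gene of each axis: Ace and Apln, which were called in opposite directions after TAC in diesel exhaust hearts, and Edn1, which was not called in any comparison. They are from RefSeq, build GRCm38.p6, which gave a window for 7 of the 9 members. Capitals mark a match to 1 of 5 motifs searched on both strands. These were the TATA box TATAAA, an AP-1 site as TGANTCA, the hypoxia response core ACGTG, the muscle element written CATTCC, and the GATA motif GATAA.
Ace, chr11:105967698-105967947, plus strand: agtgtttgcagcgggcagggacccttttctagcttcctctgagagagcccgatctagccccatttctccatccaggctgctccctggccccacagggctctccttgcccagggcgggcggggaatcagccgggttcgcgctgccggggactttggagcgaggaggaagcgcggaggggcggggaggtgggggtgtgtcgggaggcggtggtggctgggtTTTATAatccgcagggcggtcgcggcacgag
Apln, chrX:48034854-48035103, minus strand: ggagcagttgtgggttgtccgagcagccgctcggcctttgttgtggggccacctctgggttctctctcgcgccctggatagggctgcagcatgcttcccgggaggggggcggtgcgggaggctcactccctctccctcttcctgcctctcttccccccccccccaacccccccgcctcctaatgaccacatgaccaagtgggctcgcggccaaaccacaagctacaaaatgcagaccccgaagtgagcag
Edn1, chr13:42301226-42301475, plus strand: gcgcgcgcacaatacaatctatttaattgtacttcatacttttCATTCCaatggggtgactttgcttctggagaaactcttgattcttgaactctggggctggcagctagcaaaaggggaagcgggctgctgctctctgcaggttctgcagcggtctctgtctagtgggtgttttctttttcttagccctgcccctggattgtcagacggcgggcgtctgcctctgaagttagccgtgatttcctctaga
In the Ace window the TATA box letters lay on the opposite strand, at bases -31 to -26 from the start, and 12.4% of 32851 windows of this length held that motif. Only exact matches were searched, so the letters TATAAT on the gene's own strand, which overlap that match, were not counted. The Edn1 window held the muscle element at bases -207 to -202, as did 12.6% of windows somewhere along their length, and the Apln window held none of the 5. GC content was 67.2% for Ace, 65.2% for Apln and 50.4% for Edn1, against a median of 52.4% over all windows. CpG pairs numbered 19 for Ace, 12 for Apln and 9 for Edn1, against a median of 6. Ace has a further annotated start within the gene, known for the testis form of the enzyme, and counts per gene do not separate the forms.

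After TAC the angiotensin enzyme and the apelin pair were called, and no member of the endothelin axis was called. In diesel exhaust hearts 2 of the 9 members were called, Ace as higher and Apln as lower, where 3.24% of all genes tested were called. In filtered air hearts 1 member was called, Ace as higher, where 0.829% of genes were. With the effect averaged over both exposures, which rests on all 12 libraries, 3 members were called, Ace and Aplnr as higher and Apln as lower, against 8.01% of genes. The members were chosen with earlier results of these data known. Their counts beside the shares of all genes are therefore a description only. The median log2 fold change of the 9 members was -0.04 in diesel exhaust hearts, -0.03 in filtered air hearts and 0.28 averaged over both, while the median over all genes tested was 0.00 in diesel exhaust hearts, 0.01 in filtered air hearts and 0.00 averaged over both.

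**Figure D1:**
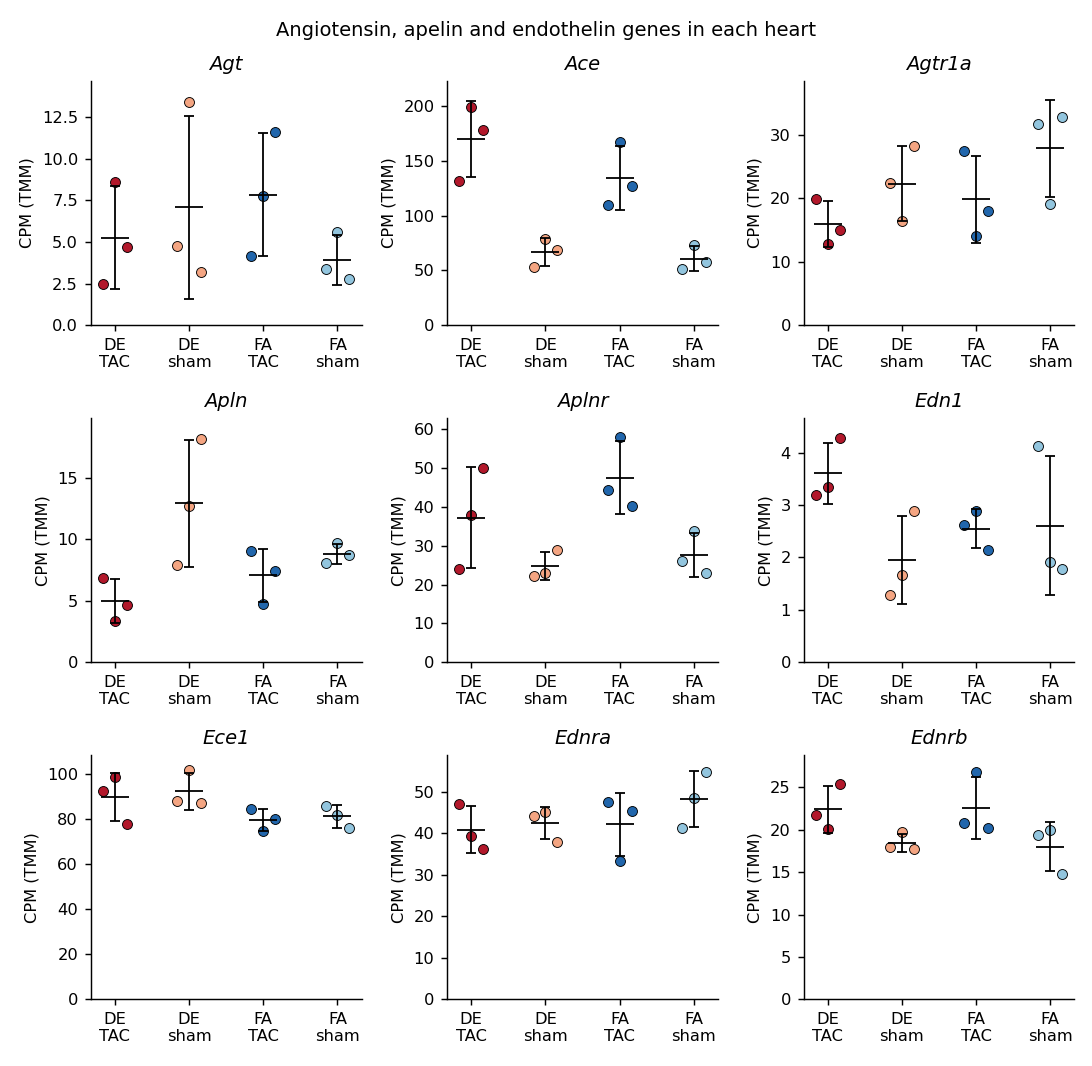
CPM (TMM-scaled counts, linear axis from 0) of the 9 members in each library, 1 panel per gene, with points for libraries and bars for the mean ± SD of 3 libraries. Ace lay between 109.8 and 199.6 CPM in the 6 TAC hearts and between 51.7 and 78.6 CPM in the 6 sham hearts.

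Ace (gene number 11421, chromosome 11, 105967948 to 105989964 on GRCm38) encodes angiotensin-converting enzyme, which also breaks down bradykinin. It had 131, 199.6 and 178 CPM in the 3 DE TAC hearts, against 53.1, 78.6 and 68.4 CPM in the DE sham hearts. The FA TAC hearts had 109.8, 167 and 127 CPM, against 51.7, 73.3 and 57.4 CPM in the FA sham hearts. The lowest TAC heart thus lay above the highest sham heart in each exposure, and also across exposures. Ace rose 2.55-fold after TAC in diesel exhaust hearts (log2 1.35 ± 0.21, edgeR adjusted p = 4.69e-04). In filtered air hearts it rose 2.22-fold (log2 1.15 ± 0.21, edgeR adjusted p = 0.00593). The difference between these effects was 0.20 ± 0.29 on the log2 scale, with a 95% interval of -0.46 to 0.87. Averaged over both exposures the rise was 2.37-fold (log2 1.25 ± 0.15, edgeR adjusted p = 9.39e-06). The filtered air call was missed without FA TAC replicate 2 (adjusted p = 0.0602), FA sham replicate 1 (0.0505) or FA sham replicate 3 (0.0532), with log2 values of 0.96, 1.04 and 1.11.

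Markers of several cell types moved after TAC alongside Ace. Ace is known from vascular endothelium and, in injured hearts, from scar-forming cells. The summed level of 14 endothelial markers was 1042 to 1163 CPM in DE TAC hearts and 959 to 1010 CPM in DE sham hearts, and 1030 to 1148 CPM in FA TAC hearts and 1003 to 1014 CPM in FA sham hearts, with 0 of the 14 called in either exposure. The 10 fibroblast markers summed to 3012 to 3530 CPM in DE TAC hearts and 1475 to 1999.7 CPM in DE sham hearts, with 6 called as higher. They summed to 2143 to 3343 CPM in FA TAC hearts and 1561 to 1697 CPM in FA sham hearts, with 4 called as higher. The 10 macrophage and monocyte markers summed to 359 to 386 CPM in DE TAC hearts and 191 to 365 CPM in DE sham hearts, and to 270.1 to 438 CPM in FA TAC hearts and 184 to 259 CPM in FA sham hearts, with 3 called as higher averaged over both exposures. The 10 ventricular cardiomyocyte markers summed to 85392 to 93004 CPM in DE TAC hearts and 104054 to 139143 CPM in DE sham hearts, and to 76172 to 123715 CPM in FA TAC hearts and 105670 to 140471 CPM in FA sham hearts. Their fold changes were below 0 for all 10 in each exposure, with 4 called as lower in the average. The 11 smooth muscle and pericyte markers summed to 738 to 831 CPM in DE TAC hearts and 802 to 965 CPM in DE sham hearts, and to 775 to 885 CPM in FA TAC hearts and 861 to 924 CPM in FA sham hearts, with 2 called as higher and 3 as lower in the average. In the average 0 of 14 endothelial markers were called, and 6 of 10 fibroblast markers as higher. The lists compare with each other only in the average, where 8.01% of all genes tested were called. The share was 3.24% in diesel exhaust hearts and 0.829% in filtered air hearts. In bulk tissue, a changed number of cells of a type and a changed amount of RNA per cell cannot be told apart, and the part of these cell types in the level of Ace was not tested.

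Agt (gene number 11606, chromosome 8, 124556587 to 124569706) encodes angiotensinogen, made mostly by the liver. It held 17 to 97 counts per library. It had 2.47, 8.59 and 4.67 CPM in DE TAC hearts, against 4.72, 13.4 and 3.17 CPM in DE sham hearts. Its level was 4.17, 7.77 and 11.6 CPM in FA TAC hearts, against 3.39, 5.58 and 2.76 CPM in FA sham hearts. The TAC and sham ranges overlapped in both exposures. The log2 fold change was -0.44 ± 0.54 in diesel exhaust hearts (edgeR adjusted p = 0.771) and 1.00 ± 0.55 in filtered air hearts (edgeR adjusted p = 0.541). The difference between these effects was -1.44 ± 0.77, with a 95% interval of -3.23 to 0.35 and an unadjusted edgeR p of 0.0809. Without DE sham replicate 2, the highest library of all 12 for Agt, the diesel exhaust value was 0.38.

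Agtr1a (gene number 11607, chromosome 13, 30336356 to 30382867) encodes the main type 1 angiotensin receptor of mouse heart and vessels. It had 19.9, 12.8 and 15.0 CPM in DE TAC hearts, against 22.3, 16.4 and 28.1 CPM in DE sham hearts. In filtered air it had 27.4, 14.0 and 18.0 CPM in TAC hearts, against 31.6, 19.1 and 32.8 CPM in sham hearts. The group means were lower after TAC in each exposure, at 15.9 ± 3.6 CPM in DE TAC and 22.3 ± 5.9 CPM in DE sham hearts, and 19.8 ± 6.9 CPM in FA TAC and 27.8 ± 7.6 CPM in FA sham hearts, with overlapping libraries. The log2 fold changes were -0.48 ± 0.27 in diesel exhaust hearts and -0.49 ± 0.27 in filtered air hearts (edgeR adjusted p = 0.415 and 0.538). The average of both, -0.49 ± 0.19, was not called (edgeR adjusted p = 0.139), and was called without FA TAC replicate 1 (log2 -0.64, adjusted p = 0.040). Its near-identical paralog Agtr1b held 0 to 4 counts per library, and reads of the pair could be split between them by the counting, so both values are uncertain.

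Averaged over both exposures, the apelin peptide and its receptor were called in opposite directions, while neither exposure alone called both. Apln (gene number 30878, chromosome X, 48025146 to 48034853) had 6.89, 3.35 and 4.67 CPM in DE TAC hearts, against 7.91, 12.7 and 18.2 CPM in DE sham hearts. The FA TAC hearts had 9.05, 4.76 and 7.41 CPM, against 8.04, 9.69 and 8.76 CPM in the FA sham hearts. In diesel exhaust the highest TAC heart, at 6.89 CPM, lay below the lowest sham heart, at 7.91 CPM. FA TAC replicate 1 lay among the sham hearts. Apln fell 2.57-fold after TAC in diesel exhaust hearts (log2 -1.36 ± 0.35, edgeR adjusted p = 0.0315). Its log2 fold change in filtered air hearts was -0.32 ± 0.35 (edgeR adjusted p = 0.830), and the difference between the effects was -1.04 ± 0.49, with a 95% interval of -2.17 to 0.08 and unadjusted and adjusted edgeR p of 0.0443 and 0.999993. Averaged over both exposures it fell by 0.84 ± 0.24 on the log2 scale (edgeR adjusted p = 0.0374). Apln rested on 30 to 126 counts per library. In diesel exhaust hearts the call was missed without DE TAC replicate 2 or 3 (adjusted p = 0.158 and 0.140), without DE sham replicate 2 or 3 (0.0631 and 0.182), under limma voom (0.0672) and in a fit of those 2 groups alone (0.0556). The averaged call was made in 4 of 12 fits that left out 1 library. It was missed without replicate 2 or 3 of any group (adjusted p = 0.0533 to 0.128) and under voom (0.0633).

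Aplnr (gene number 23796, chromosome 2, 85136360 to 85139923) had 24.1, 37.8 and 49.9 CPM in DE TAC hearts, against 22.2, 23.1 and 29.0 CPM in DE sham hearts. Its level was 44.4, 58.0 and 40.1 CPM in FA TAC hearts, against 26.0, 33.9 and 23.0 CPM in FA sham hearts. Of the 6 TAC hearts 5 lay above every sham heart, and DE TAC replicate 1 lay among the sham hearts. The log2 fold change was 0.59 ± 0.24 in diesel exhaust hearts (edgeR adjusted p = 0.210) and 0.78 ± 0.24 in filtered air hearts (edgeR adjusted p = 0.144). Averaged over both, Aplnr rose 1.61-fold (log2 0.68 ± 0.17, edgeR adjusted p = 0.0134), a call missed without DE TAC replicate 3 (0.0571) or FA TAC replicate 2 (0.0554). The difference between the effects was -0.19 ± 0.34, with a 95% interval of -0.97 to 0.58.

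The ratio of Apln to Aplnr per length was lower in every TAC heart than in every sham heart of the same exposure. It was 0.336, 0.104 and 0.110 in DE TAC hearts, against 0.419, 0.647 and 0.736 in DE sham hearts. In filtered air it was 0.239, 0.0964 and 0.217 in TAC hearts, against 0.363, 0.336 and 0.447 in sham hearts. Ednra over Ednrb lay between 1.10 and 1.69 in DE TAC hearts and between 1.67 and 1.91 in DE sham hearts, and between 0.968 and 1.78 in FA TAC hearts and between 1.66 and 2.88 in FA sham hearts, so that TAC and sham libraries overlapped in both exposures. These ratios use the values tested above and are given as a description.

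**Figure D2:**
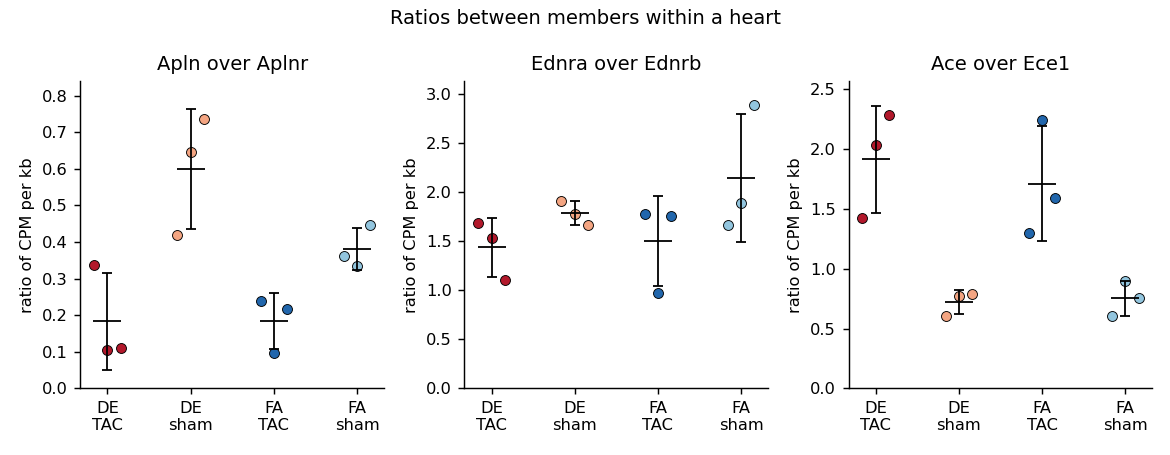
Ratio of CPM per kilobase of exon (linear axis from 0) in each library, with bars for the mean ± SD of 3 libraries. Gene pairs are within an axis, except Ace over Ece1, which joins the angiotensin and endothelin axes. Ace over Ece1 ranged from 1.30 to 2.29 in the 6 TAC hearts and from 0.601 to 0.898 in the 6 sham hearts.

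No member of the endothelin axis was called after TAC. The endothelin gene Edn3, which is not a member, was called as higher in diesel exhaust hearts and averaged over both exposures, as described below. Edn1, which encodes endothelin-1 (gene number 13614, chromosome 13, 42301476 to 42307990), held 10 to 44 counts per library. It had 3.19, 3.35 and 4.28 CPM in DE TAC hearts, against 1.28, 1.67 and 2.89 CPM in DE sham hearts. In filtered air it had 2.62, 2.88 and 2.15 CPM in TAC hearts, against 4.13, 1.91 and 1.78 CPM in sham hearts. In diesel exhaust the lowest TAC heart, at 3.19 CPM, lay just above the highest sham heart, at 2.89 CPM. The filtered air groups overlapped. Neither difference was called, at log2 0.89 ± 0.49 in diesel exhaust hearts and -0.06 ± 0.49 in filtered air hearts (edgeR adjusted p = 0.406 and 0.984), and the difference between them was 0.94 ± 0.70.

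Ece1 (gene number 230857, chromosome 4, 137862237 to 137965229), the converting enzyme, varied least among the 9. It had 92.8, 98.6 and 78.2 CPM in DE TAC hearts, against 88.2, 102 and 87.4 CPM in DE sham hearts. The FA TAC hearts had 84.7, 74.8 and 80.2 CPM, against 86.2, 81.8 and 76.1 CPM in the FA sham hearts. The groups overlapped in both exposures. Its averaged log2 fold change was -0.03 ± 0.11 (edgeR adjusted p = 0.906), with a 95% interval of -0.29 to 0.22.

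Ednra (gene number 13617, chromosome 8, 77663029 to 77724452), the constrictor receptor, had 47.1, 39.4 and 36.1 CPM in DE TAC hearts, against 44.2, 45.0 and 37.9 CPM in DE sham hearts. Its level was 47.5, 33.3 and 45.4 CPM in FA TAC hearts, against 41.3, 48.5 and 54.7 CPM in FA sham hearts. The groups overlapped, and the averaged log2 fold change was -0.12 ± 0.13 (edgeR adjusted p = 0.662), with a 95% interval of -0.42 to 0.18. Ednrb (gene number 13618, chromosome 14, 103814615 to 103844508), the endothelial receptor, had 21.8, 20.1 and 25.5 CPM in DE TAC hearts, against 18.0, 19.7 and 17.7 CPM in DE sham hearts. In filtered air it had 20.8, 26.8 and 20.2 CPM in TAC hearts, against 19.4, 19.97 and 14.8 CPM in sham hearts. All 6 TAC hearts lay above all 6 sham hearts, but the lowest TAC heart, at 20.1 CPM, was close to the highest sham heart. The averaged log2 fold change was 0.30 ± 0.15 and was not called (edgeR adjusted p = 0.239). Ece1, Ednra and Ednrb overlap 2, 3 and 1 other genes of the RefSeq table, and Ace 1. Of these overlapping genes 0 are among the genes counted. The sources used here do not give the strand setting of the counting, so reads of the overlapping genes may be included in the counts of these members.

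**Figure D3:**
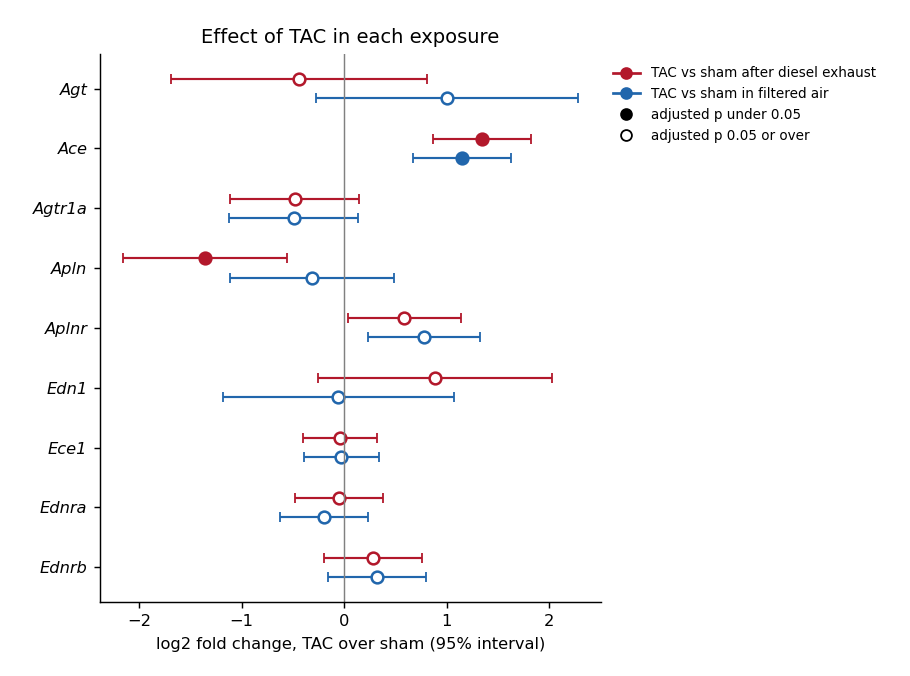
Log2 fold change of TAC against sham for each member, in diesel exhaust hearts (upper point of each pair) and in filtered air hearts (lower point), with bars for 95% intervals and filled points for edgeR adjusted p under 0.05. Ace is filled at 1.35 and 1.15, and Apln is filled at -1.36 in diesel exhaust hearts and open at -0.32 in filtered air hearts.

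No member was called for the exposure before birth. Diesel exhaust against filtered air called 0 of 9 members in TAC hearts (background 0%), 0 of 9 in sham hearts (background 0%) and 0 of 9 averaged over both surgeries (background 0%). The interaction of exposure and surgery called 0 of 9 (background 0%). Across all genes tested edgeR called 0 in each of these, while 255, 503, 452 and 327 genes had an unadjusted p under 0.05 in TAC hearts, in sham hearts, averaged over surgeries and in the interaction. DESeq2 called 1 gene in TAC hearts and 1 in the interaction. Among the members, 1 had an unadjusted p under 0.05 in these 4 comparisons, Apln in the interaction (0.0443). Averaged over surgeries, the member furthest from 0 was Agtr1a at -0.32 ± 0.19, with a 95% interval of -0.76 to 0.13. In TAC hearts Ace differed by 0.33 ± 0.20 between diesel exhaust and filtered air, with an interval of -0.13 to 0.80.

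Levels compared per kilobase of exon order the members. In TAC hearts of both exposures Ace led at 28.8 ± 6.6 CPM per kilobase, followed by Ece1 at 16.0 ± 1.7 and Aplnr at 11.5 ± 3.1. Ednra followed at 7.57 ± 1.10, Agtr1a at 6.41 ± 1.92 and Ednrb at 5.28 ± 0.68, with Agt at 3.46 ± 1.78, Apln at 1.91 ± 0.67 and Edn1 at 1.44 ± 0.34 (n = 6). In sham hearts Ece1 led at 16.4 ± 1.6 CPM per kilobase, followed by Ace at 12.1 ± 2.1, Agtr1a at 9.0 ± 2.4, Ednra at 8.26 ± 1.06 and Aplnr at 7.09 ± 1.23. Ednrb at 4.28 ± 0.46, Apln at 3.46 ± 1.26, Agt at 2.91 ± 2.11 and Edn1 at 1.06 ± 0.49 closed the order (n = 6). In TAC hearts Ace stood apart from Ece1 by more than both SDs together, while each later neighbour in the order overlapped the next within its SD. In sham hearts Ece1 stood apart from Ace and Aplnr from Ednrb in that sense, and the other neighbours overlapped. Each receptor had a higher mean per length than Apln and Edn1 in each surgery.

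**Figure D4:**
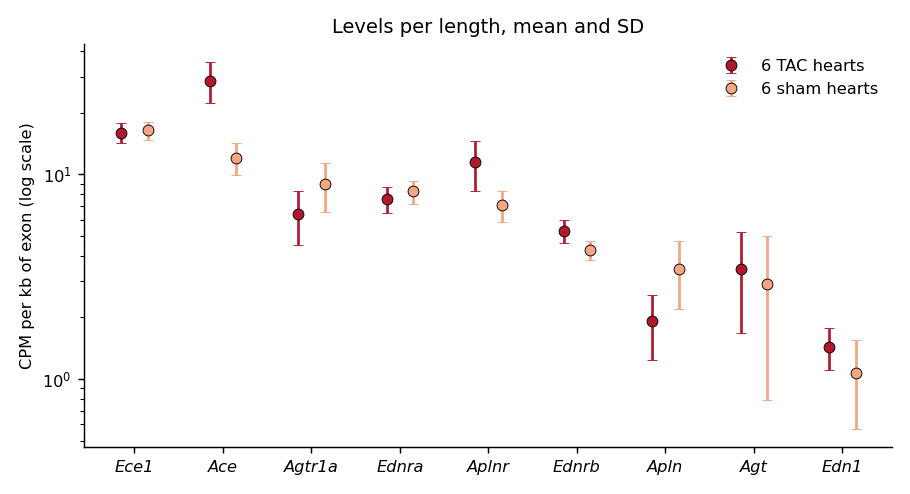
CPM per kilobase of exon (log axis) for the 9 members, with points for the mean and bars for the SD of 6 TAC hearts (left of each pair) and 6 sham hearts (right). Ace averaged 28.8 in TAC hearts and 12.1 in sham hearts, while Ece1 averaged 16.0 in TAC hearts and 16.4 in sham hearts.

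Of 67 other genes of these and related vasoactive pathways, 48 were tested. TAC in diesel exhaust hearts called 4 as higher and 1 as lower, where 3.24% of all genes tested were called, and in filtered air hearts 2 as higher and 0 as lower, where 0.829% were. Averaged over both exposures 4 were higher and 2 lower, where 8.01% of genes were called, and the comparisons of exposure called 0. Their median log2 fold change averaged over both was 0.15, against 0.00 over all genes tested. The averaged calls were Edn3, Nppa, Nppb and Calcrl as higher and Rgs2 and Nr3c2 as lower. Of these, Nppa, Nppb and Calcrl came from a list of vasoactive genes outside the angiotensin, endothelin and apelin axes. That list gave 3 of the higher calls in diesel exhaust hearts, 2 in filtered air hearts and 3 in the average. The lists were chosen with earlier results of these data known.

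Edn3 encodes endothelin-3, a peptide that favours receptor B, and was called as higher after TAC averaged over both exposures. Its list held 6 endothelin and apelin peptide and enzyme genes outside the members, of which 3 were tested. Edn3 was the 1 called in the average, where 8.01% of all genes were, and Ece2 and Furin were not called. It had 1.02, 7.14 and 7.16 CPM in DE TAC hearts, against 0.128, 0.167 and 1.44 CPM in DE sham hearts, in order of level. The FA TAC hearts had 2.98, 5.14 and 6.09 CPM, against 0.212, 0.440 and 0.811 CPM in the FA sham hearts. In diesel exhaust the lowest TAC heart, at 1.02 CPM, lay below the highest sham heart, at 1.44 CPM. Sham libraries held 1 to 10 counts of it. The averaged log2 fold change was 3.20 ± 0.58 (edgeR adjusted p = 0.00150), and the call was missed under limma voom (0.0590). In diesel exhaust hearts alone the log2 fold change was 3.09 ± 0.80 (edgeR adjusted p = 0.0398), a call missed under voom (0.316) and without replicate 2 or 3 of DE TAC, FA TAC or FA sham or replicate 1 or 2 of DE sham (0.0507 to 0.155), and in a fit of those 2 groups alone (0.123). Edn3 was not called in filtered air hearts (log2 3.32 ± 0.83, edgeR adjusted p = 0.0670). It was called there with no filter on low counts (edgeR adjusted p = 0.00347) and under DESeq2 (0.00823). An edgeR fit of those 2 groups alone (0.0255) called it too, as did fits without DE TAC replicate 1 (0.0216) or DE sham replicate 3 (0.0359).

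Among the angiotensin genes outside the 9, 1 of 14 tested was called in the averaged comparison, a share near the 8.01% of all genes. This was Nr3c2, which encodes the mineralocorticoid receptor for aldosterone (log2 -0.79 ± 0.17, edgeR adjusted p = 0.00670). It was not called in diesel exhaust hearts or in filtered air hearts alone (edgeR adjusted p = 0.239 and 0.0604). Nr3c2 was called in filtered air hearts with no filter on low counts (edgeR adjusted p = 0.00769) and under DESeq2 (0.0229). It was also called there in an edgeR fit of those 2 groups alone (0.0246) and without DE sham replicate 2 (0.0200) or 3 (0.0350). It averaged 15.3 ± 3.2 CPM in DE TAC and 22.8 ± 9.5 CPM in DE sham hearts, and 16.7 ± 0.4 CPM in FA TAC and 33.3 ± 1.5 CPM in FA sham hearts. The renin gene Ren1 and the type 2 receptor Agtr2 had 0 counts in all 12 libraries, which allows up to 0.218 to 0.501 CPM per library, as did the apelin receptor ligand Apela. The kinin list had 0 of 5 genes at testable levels.

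Of 19 genes of Gq and G12 signalling and receptor turnover, Rgs2, which limits signalling through Gq, was the 1 called in the average, below the 8.01% of all genes. It averaged 9.46 ± 2.90 CPM in DE TAC and 20.7 ± 0.9 CPM in DE sham hearts, and 9.60 ± 1.45 CPM in FA TAC and 23.5 ± 10.9 CPM in FA sham hearts. Its averaged log2 fold change was -1.20 ± 0.22 (edgeR adjusted p = 0.00135). In diesel exhaust hearts it was -1.12 ± 0.31 (edgeR adjusted p = 0.0496), a call that held, among fits leaving out 1 library, without DE TAC replicate 1 or FA sham replicate 1 and was missed in the other 10 (0.0518 to 0.216), under limma voom (0.0958) and with mitochondrially encoded genes left out (0.0523). Rgs2 was not called in filtered air hearts, at log2 -1.28 ± 0.31 (edgeR adjusted p = 0.0554). It was called there with no filter on low counts (edgeR adjusted p = 0.00210) and under DESeq2 (0.0153). The edgeR fits without DE TAC replicate 1 (0.0469) or FA sham replicate 1 (0.00260) called it too.

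Of 12 vasoactive genes tested, 3 were called as higher in the average, where 8.01% of all genes were called. These were Calcrl, a receptor component for adrenomedullin, and the natriuretic peptides Nppa and Nppb. The same 3 were called in diesel exhaust hearts, where 3.24% of genes were. In filtered air hearts 2 were called, Nppa and Nppb, where 0.829% of genes were. Calcrl averaged 47.0 ± 3.7 CPM in DE TAC and 25.4 ± 9.99 CPM in DE sham hearts, and 39.9 ± 9.0 CPM in FA TAC and 27.2 ± 1.9 CPM in FA sham hearts (averaged log2 0.72 ± 0.16, edgeR adjusted p = 0.00774). In diesel exhaust hearts alone it was 0.88 ± 0.23 (edgeR adjusted p = 0.0366), a call missed without any 1 of the DE TAC hearts, DE sham replicate 1 or 2, FA TAC replicate 3 or FA sham replicate 3 (0.0510 to 0.147) and in a fit of those 2 groups alone (0.0633). Calcrl was not called in filtered air hearts (log2 0.56 ± 0.23, edgeR adjusted p = 0.358). Nppb, released by loaded ventricle, rose in both exposures, with a log2 fold change of 2.18 ± 0.27 in diesel exhaust hearts and 2.11 ± 0.27 in filtered air hearts (edgeR adjusted p = 1.70e-04 and 5.63e-04). Nppa rose by more, to 1179 ± 498 CPM in DE TAC hearts, against 57.8 ± 22.6 CPM in DE sham hearts. It averaged 693 ± 280 CPM in FA TAC hearts, against 69.4 ± 31.2 CPM in FA sham hearts. Its log2 fold change was 4.35 ± 0.52 in diesel exhaust hearts and 3.32 ± 0.50 in filtered air hearts (edgeR adjusted p = 0.00239 and 0.0175), the filtered air call being missed without FA TAC replicate 2 or FA sham replicate 1 or 3 (0.0737 to 0.108).

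**Figure D5:**
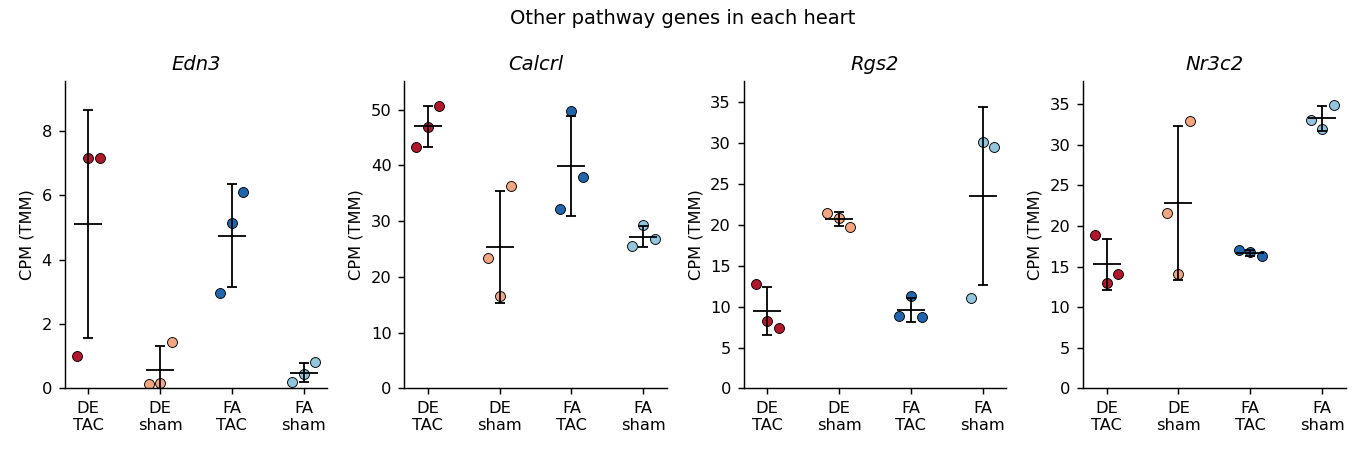
CPM (linear axis from 0) in each library for Edn3, Calcrl, Rgs2 and Nr3c2, with bars for the mean ± SD of 3 libraries. Nr3c2 ranged from 16.2 to 17.0 CPM in FA TAC hearts and from 31.9 to 34.9 CPM in FA sham hearts, while for Rgs2 FA sham replicate 1, at 11.0 CPM, lay among the TAC hearts.

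The genes whose levels ran most like each member were taken from 9757 tested genes averaging at least 5 CPM, by Pearson correlation of log2 CPM over the 12 libraries, which share surgery, exposure and depth. Ace ran closest to Sparc, a matrix glycoprotein (r = 0.971), Adamtsl2 (r = 0.971) and Txndc5 (r = 0.969). Apln ran closest to Clcn3 (r = 0.892) and Aplnr to Ipo7 (r = 0.904). Ednrb was closest to Arrb1, a beta-arrestin that switches off G protein-coupled receptors (r = 0.892). For the rest the closest gene had r between 0.842 for Ednra and 0.941 for Agtr1a. These are descriptions over 12 libraries.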

How the data were processed

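RNA of 12 mouse hearts was measured by sequencing after ribosomal RNA depletion, per the labels' protocols, which state that 4 samples shared a run. The deposited values are raw counts per gene number for 27179 genes. Per the submitters' processing notes, reads were trimmed with cutadapt 1.6, aligned to mm10 with Subread 1.4.2 and counted with featureCounts. The sources used here do not give the strand setting or the treatment of reads mapping to several places. Symbols came from RefSeq GRCm38.p6 for 25275 genes and GENCODE M21 for 18.

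CPM were computed here with TMM factors, and CPM per kilobase with GENCODE M21 union exon length. The filter on low counts was filterByExpr at a minimum count of 10. The edgeR 4.0.16 quasi-likelihood model (R 4.3.3, robust, 1 mean per group, 8 residual degrees of freedom) covered all 12 libraries, and 7 contrasts were tested. SE was derived from the fold change and its F value, and 95% intervals use 8 degrees of freedom, so they are wider than the moderated test. The fit was tested on simulated counts.

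Named genes are the 9 members, called genes of the pathway lists (at most 6 per list) and, for likeness, the 3 genes with the highest correlation per member. Members and lists were chosen with earlier results of these data known. Replicate numbers follow accession order and pair nothing. Alternatives were limma 3.58.1 voom, DESeq2 1.42.0 and those under processing dependence.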

Additional observations from a re-analysis of the deposited data

How the results depend on the processing

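The members called in diesel exhaust hearts numbered 2, but 1 under limma voom and 1 in a fit of those 2 groups alone, and 1 to 2 without each library in turn. In filtered air hearts 1 was called, 2 with no filter on low counts (Ace and Aplnr), and 0 to 1 without each library. Averaged over both exposures 3 were called, and 1 to 4 without each library. The 4 comparisons of exposure called 0 members under every alternative run. Over all genes, calls in diesel exhaust hearts ran from 188 to 530 against 442 without each library. In filtered air hearts the 113 became 247 with no filter, 239 under DESeq2, 74 under voom and 39 to 143 without each library. The averaged count of 1091 ran from 631 to 1213 without each library. The exposure comparison in TAC hearts and the interaction each called 1 gene with no filter and 1 under DESeq2. Leaving out 1 library turned the sign of some values that were not called. These were Agt in diesel exhaust hearts (-0.98 to 0.38), Edn1 in filtered air hearts (-0.26 to 0.46, 0.05 among them), Ece1 in diesel exhaust hearts (-0.113 to 0.0496, 0.0328 among them), in filtered air hearts (-0.0723 to 0.0193, 0.0170 among them) and averaged (-0.0697 to 0.0115, 0.00287 among them), Ednra in diesel exhaust hearts (-0.166 to 0.0318), the Aplnr interaction (-0.462 to 0.0458), and the sham exposure difference of Ace (-0.000600 to 0.304) and Aplnr (-0.283 to 0.0252). Of 1041 alternative values of 59 single-gene results, 958 kept direction and side of the threshold, 54 lost the call, 16 gained it and 13 changed sign. The cause of these changes was not tested. The 59 include exposure and interaction results far from the threshold. The number kept is therefore no measure of how firm the calls were. No paired analysis was possible because the labels give no replicate numbers shared between groups. Edn1, Agt and Apln had the fewest counts per library.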
